A study of Caenorhabditis elegans with 3 samples.

Results

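Translation initiation and elongation factor genes were examined for promoter occupancy by the zinc finger protein Y5F2A.4 in whole Caenorhabditis elegans larvae. The genes were taken by name, as all nuclear protein-coding genes whose symbol starts with eif-, iff-, ife-, ifg-, inf-, eef- or erfa-. This gave 42 of 19973 genes: 32 initiation factor genes, 6 elongation factor genes, the 2 iff- genes for eIF5A and the 2 erfa- genes for release factors. Classes follow the symbol alone, so a gene named eif- counts as an initiation factor gene whatever its role. The worms were of strain OP682, which carries the unc-119(tm4063) mutation and the integrated transgene wgIs682, holding Y5F2A.4 fused at its C-terminal end to TY1, EGFP and 3xFLAG tags together with a rescuing unc-119(+) copy. Mixed-sex L4 larvae at 48 hours, synchronised by bleaching and starvation at L1, gave 3 libraries that form 1 group. Biological replicate 1 was sequenced as 2 technical libraries and biological replicate 2 as 1. Chromatin was recovered with an antibody against GFP. Every library carries the transgene, so the group is a single tagged line in whole animals, and no contrast between conditions, tissues or genotypes is possible. The lists hold no expression values against which a tissue could be checked.

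Translation starts when initiation factors bring the small ribosomal subunit, the initiator tRNA and the mRNA together and find the start codon. Elongation factors then deliver each aminoacyl-tRNA and move the ribosome along the message, and release factors end the chain at a stop codon. Elongation factors are among the most abundant proteins of growing cells, while initiation is the step that cells regulate most closely. The peak lists used here give the position of the tagged protein on chromatin and say nothing about the amount of any mRNA or protein.

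A gene was counted as bound when a summit of the authors' thresholded list lay from 1000 bp upstream to 200 bp downstream of its annotated 5' end. It was counted as candidate only when a summit of the combined candidate list, made from both replicates and holding background regions as well, lay there and no thresholded one did. The thresholded list held 620 nuclear peaks and the combined list 28426 nuclear regions. Each region carries a signal value, the score of the authors' peak caller, which has no stated unit. Read depth is unknown, and a promoter without a summit in these lists was not shown to be unoccupied.

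The sequences under the summits are shown for the bound genes iff-2, eif-2Bgamma, eef-1G, eef-1A.1 and eef-1A.2. Those of the bound genes eif-3.C and eef-2 are not shown, although the results below rest on their peaks as well. The sequences shown are from RefSeq's copy of WBcel235, the assembly also called ce11. Each is written 5′ to 3′ on the strand of the translation factor gene. Each covers up to 50 bp on either side of the summit without exons of protein-coding genes, which shortened the eef-1G stretch to the 49 bp before its 5' end. Capitals mark the word GAACCC, one of the words searched for at all summits.
iff-2, chrII:8561372-8561472, minus strand: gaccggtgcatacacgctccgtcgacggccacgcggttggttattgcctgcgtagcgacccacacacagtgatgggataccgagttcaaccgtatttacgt
eif-2Bgamma, chrII:6968443-6968543, minus strand: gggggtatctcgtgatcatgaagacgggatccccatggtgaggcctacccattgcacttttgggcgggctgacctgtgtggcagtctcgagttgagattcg
eef-1G, chrV:10965670-10965718, plus strand: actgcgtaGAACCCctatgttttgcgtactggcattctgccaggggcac
eef-1A.1, chrIII:6972020-6972120, minus strand: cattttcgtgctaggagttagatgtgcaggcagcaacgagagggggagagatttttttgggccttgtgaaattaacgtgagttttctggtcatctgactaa
eef-1A.2, chrX:7823200-7823300, plus strand: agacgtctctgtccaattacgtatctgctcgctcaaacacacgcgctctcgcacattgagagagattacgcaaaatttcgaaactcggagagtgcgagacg

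These sequences differed in base composition and in what the annotation places over them. The iff-2 and eif-2Bgamma windows both held 57.4% G and C and the eef-1A.1 window 44.6%. The eif-2Bgamma window lies inside the snRNA gene sup-39, and the eef-1A.1 window overlaps the miRNA precursor gene mir-5549. The other 3 windows overlapped no annotated non-coding gene.

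Of the 42 translation factor genes, 7 were bound, which is 16.7%, beside 1.46% of all nuclear protein-coding genes. These 7 were iff-2, eif-3.C, eif-2Bgamma, eef-1G, eef-2, eef-1A.1 and eef-1A.2. Elongation factor genes made up most of them, with 4 of 6 bound (66.7%), against 2 of 32 initiation factor genes (6.25%). One of the 2 eIF5A genes and 0 of the 2 release factor genes were bound. The difference between initiation and elongation factors was not tested, because genes are not replicates of the protein's binding and the classes are small. A further 18 members, or 42.9%, had only a candidate summit, beside 28.9% of all protein-coding genes, and 17 had neither.

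**Figure D1:**
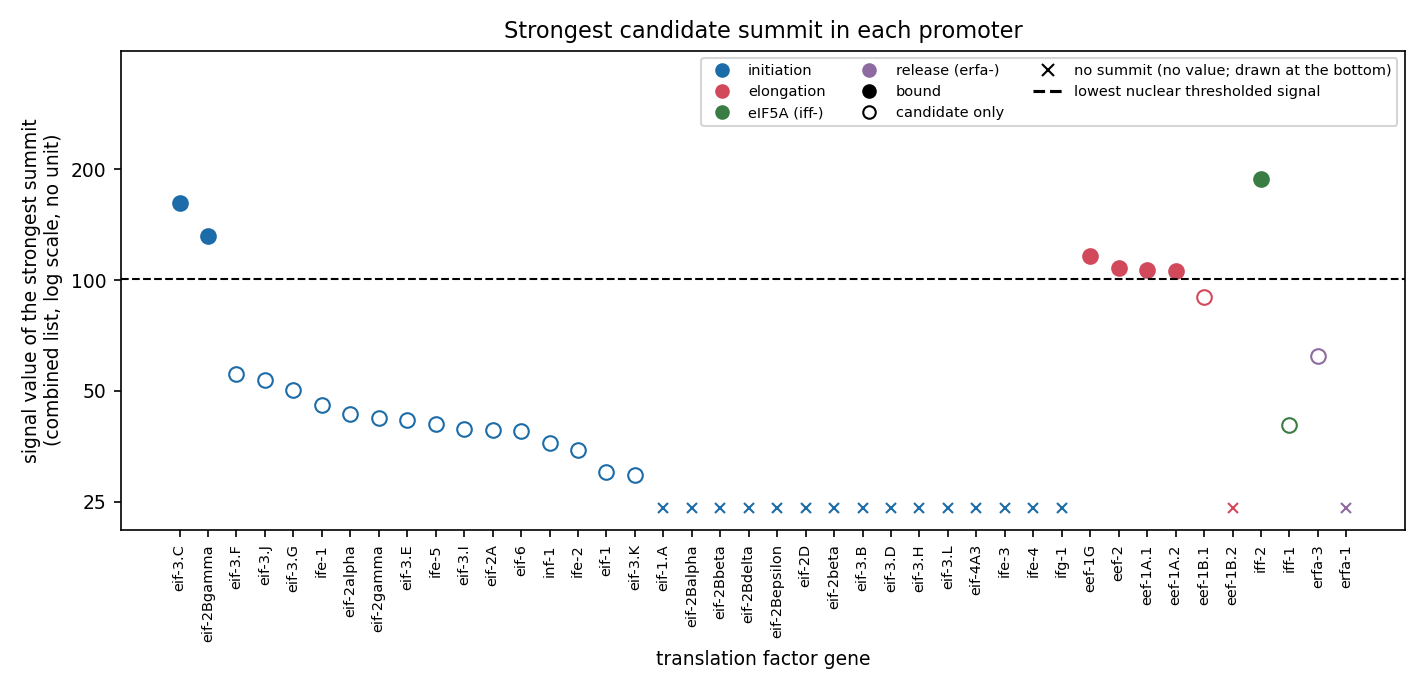
Signal value of the strongest summit of the combined list in the promoter of each of the 42 genes (log scale, no unit), coloured by class. Filled points are bound, open points candidate only and crosses genes without a summit, and the dashed line marks the lowest nuclear thresholded signal of 100.5; the 4 bound elongation factor genes lie between 105.6 and 116.1, just above it.

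The bound elongation factor genes had low signals for thresholded peaks, and close to one another. The gene eef-1G (WBGene00008920), for the gamma subunit of the exchange complex that recharges eEF1A with GTP, had a signal of 116.1 on V, 10965532 to 10965907. The gene eef-2 (WBGene00001167), for the GTPase that moves the ribosome by a codon, had a signal of 107.7 on I, 9163324 to 9163699. The eEF1A genes, for the GTPase that carries aminoacyl-tRNA to the ribosome, were both bound: eef-1A.1 (WBGene00001168) with 106.9 on III, 6971882 to 6972257, and eef-1A.2 (WBGene00001169) with 105.6 on X, 7823062 to 7823437. Their ranks among the 620 nuclear peaks ran from 438 for eef-1G to 548 for eef-1A.2, in the weaker part of the list, whose median nuclear signal was 131.3.

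The remaining elongation factor genes encode further subunits of the same exchange complex and fell on the other side of the threshold. The gene eef-1B.1 (WBGene00018846) had a candidate summit at +31 bp in its 5' UTR with a signal of 89.8, rank 863 in the combined list. It lay outside the thresholded list, with 227 nuclear candidates between its signal and the lowest thresholded one. The gene eef-1B.2 had no summit in its promoter in the combined list or in that of either replicate. Its nearest thresholded summit was at -26190 bp, where negative values are upstream of the 5' end.

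The 2 bound initiation factor genes and iff-2 had higher signals. The gene iff-2 (WBGene00002065), for the hypusine-carrying factor eIF5A, which was named for initiation and is known to help peptide bond formation during elongation, had the highest signal of all members, 187.8, on II, 8561234 to 8561609. The gene eif-3.C (WBGene00001226), for a core subunit of the eIF3 scaffold on the small ribosomal subunit, had 162.3 on I, 9979717 to 9980092. The gene eif-2Bgamma (WBGene00004090), for a subunit of the factor that exchanges GDP for GTP on eIF2, had 131.9 on II, 6968305 to 6968680. These 3 ranked 117, 174 and 306 among nuclear peaks. Beside them, the 291 bound protein-coding genes had a median signal of 134.5, and all 7 members one of 116.1.

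The replicates were scored in separate lists, of 30000 regions for replicate 1 and 23415 for replicate 2, so signals are set side by side only. In iff-2 the signal was 67.7 in replicate 1 (rank 262) and 118.4 in replicate 2 (rank 94). In eif-3.C it was 60.5 (rank 359) and 98.7 (rank 154). In eif-2Bgamma it was 54.8 (rank 500) and 82.1 (rank 276). These 3 genes were thus among the 620 highest ranks of both replicates. The replicate 2 summit matched to eif-2Bgamma was 127 bp from the thresholded one, and a nearer one at 83 bp ranked 935.

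The elongation factor genes ranked high in replicate 2 and lower in replicate 1. In eef-2 the signal was 45.7 in replicate 1 (rank 882) and 67.2 in replicate 2 (rank 462). In eef-1A.2 it was 45.7 (rank 881) and 69.95 (rank 411). In eef-1G it was 29.9 (rank 4370) and 79.1 (rank 299), and in eef-1A.1 it was 23.4 (rank 10167) and 71.8 (rank 380). The authors' −log10 q in replicate 1 was 0.614 for eef-1G and 0.253 for eef-1A.1, against 1.83 for each of the other 5 members. In replicate 2 all 7 had 1.82. Of the 615 nuclear thresholded peaks matched in replicate 1, 1 ranked below that of eef-1A.1 and 9 below that of eef-1G.

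By the strongest summit within 200 bp, all 7 members ranked higher in replicate 2 than in replicate 1, beside 331 of 615 nuclear peaks matched in both (53.8%). For eif-2Bgamma this order depended on the matching. Its nearest replicate 2 summit ranked 935, lower than its rank of 500 in replicate 1. When the 620 strongest nuclear regions of a single replicate stood in for the thresholded list, replicate 2 alone gave 8 bound members and replicate 1 alone gave 3. Without replicate 1, all 7 remained and eef-1B.1 was added, so 5 of the 6 elongation factor genes were bound. Without replicate 2, only iff-2, eif-3.C and eif-2Bgamma remained and 0 of the 6 elongation factor genes were bound. The share of all protein-coding genes was 1.51% and 1.34% in these settings. At eef-1B.1 the signal was 66.6 in replicate 2 (rank 478) and 19.1 in replicate 1 (rank 17423). At this cut of 620 regions, the higher share of bound elongation factor genes therefore came from replicate 2, the replicate with 1 library. In replicate 1, eef-2 and eef-1A.2 fell past the cut at ranks 882 and 881, with the same −log10 q of 1.83 as iff-2. That value did not order the peaks by strength. In replicate 1 the signal was 67.7 in iff-2 and 45.7 in both eef-2 and eef-1A.2. The genes eef-1G and eef-1A.1 ranked far lower there. Why the replicates differed was not tested.

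**Figure D2:**
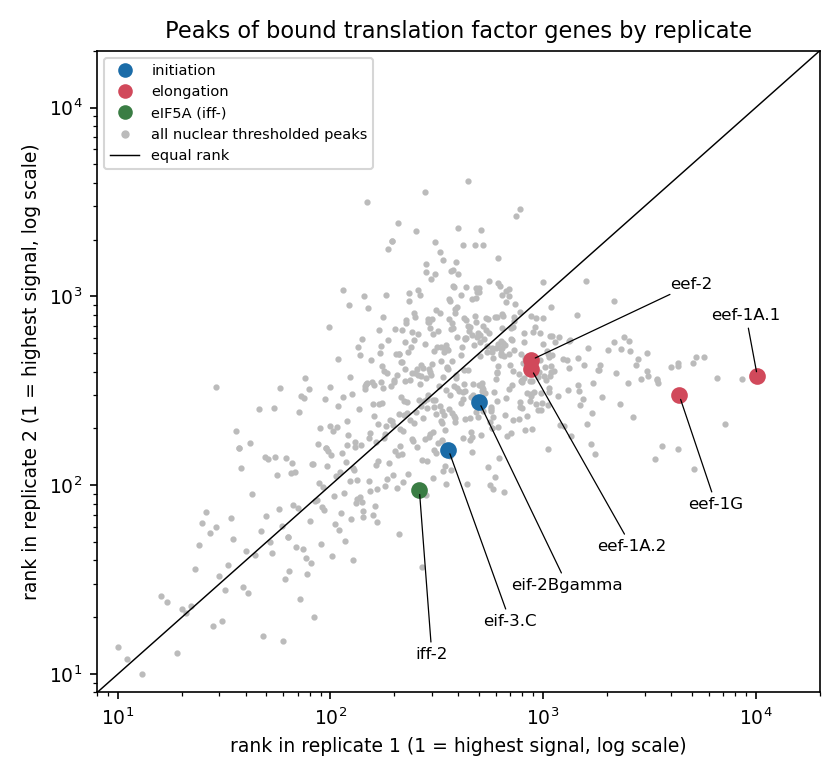
Rank by signal in replicate 1 (x axis) and replicate 2 (y axis), both on log scales with 1 as the highest signal, for the peaks of the 7 bound translation factor genes and, in grey, for the 615 nuclear thresholded peaks with a candidate in both replicates. Each point takes the strongest summit within 200 bp. The peak at rank 22553 in replicate 1 and rank 486 in replicate 2 lies beyond the x axis and is not drawn. The points for eef-1G and eef-1A.1 lie far to the right, at ranks 4370 and 10167 of replicate 1, while all 7 genes are at rank 462 or better in replicate 2.

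The summits lay at different distances from the gene starts. In eef-1G the summit was at +1 bp, which is in the annotated 5' UTR, in eef-2 it was at -19 bp and in iff-2 at -55 bp. The summit was at -243 bp in eif-3.C, -358 bp in eef-1A.1, -404 bp in eef-1A.2 and -845 bp in eif-2Bgamma. The median over the 7 genes was -243 bp, beside -284 bp over the 291 bound protein-coding genes. Within 100 bp of the 5' end lay 3 of the 7 summits (42.9%), beside 17.5% of those of all bound protein-coding genes. No nearer transcript start was annotated for any of the 7. All 7 regions were 376 bp wide, the width of 546 of the 620 nuclear peaks, with the summit placed near the middle, and the matched summits of the replicates were up to 148 bp apart.

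**Figure D3:**
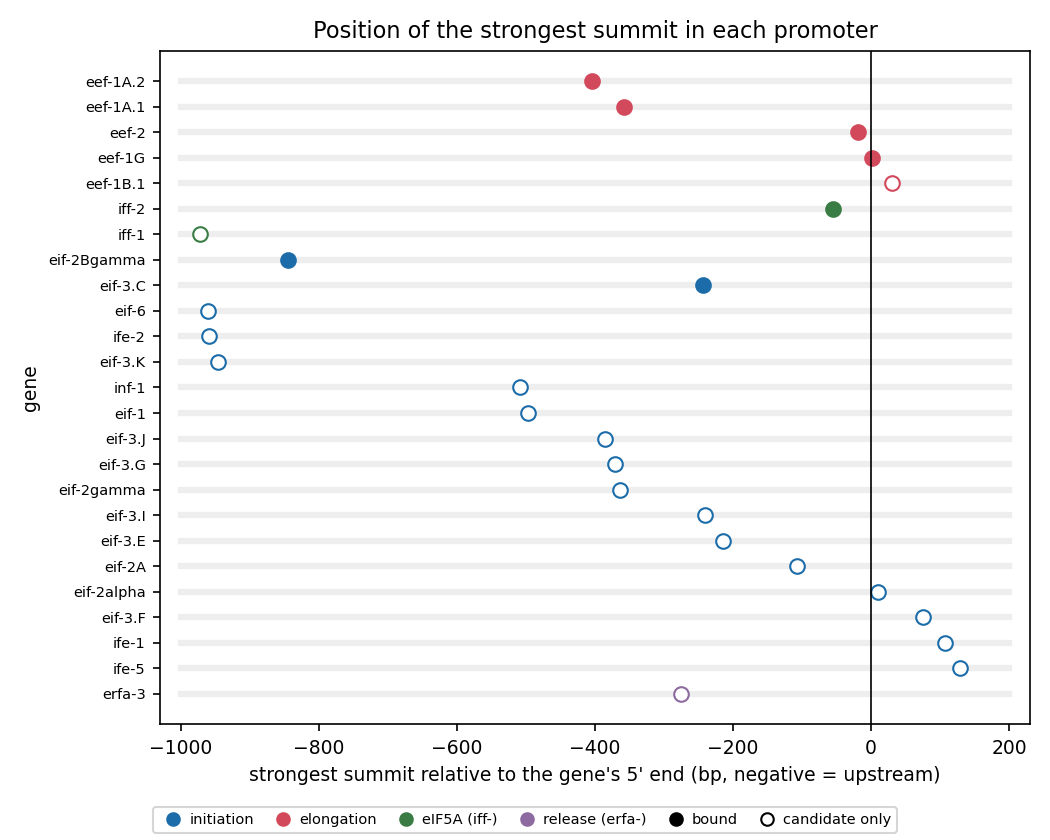
Position of the strongest combined-list summit relative to the 5' end of each of the 25 genes that had one (x axis, bp, negative upstream), by gene and class. Filled points are bound and open points candidate only; the summits of eef-1G, eef-2 and iff-2 lie within 55 bp of the gene start and that of eif-2Bgamma lies 845 bp upstream.

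In 4 of the 7 genes (57.1%) the summit also lay in the promoter window of another gene, each time a divergently transcribed neighbour. Beside this, 117 of the 291 bound protein-coding genes (40.2%) shared their summit with another gene. The eef-1G summit, inside the start of eef-1G, was 181 bp upstream of ctf-4, for a replisome protein, whose 5' end is 180 bp from that of eef-1G. The eef-2 summit lay between the genes, 246 bp upstream of clsp-1, for the checkpoint protein claspin, with 265 bp between the gene starts. The eef-1A.1 summit was 183 bp upstream of rfc-4, for a subunit of the clamp loader of DNA replication, and 358 bp upstream of eef-1A.1 itself. The iff-2 summit was 880 bp upstream of F54C9.14, far nearer to iff-2. When each summit was given to the nearest protein-coding 5' end alone, eef-1A.1 lost its peak to rfc-4 and the other 6 members kept theirs. From the peak position alone it cannot be told which gene of such a pair a summit belongs to.

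Divergent arrangements were common among translation factor genes whether or not they were bound. A divergent neighbour started within 1000 bp upstream in 4 of 7 bound members, 7 of 18 candidate-only members and 11 of 17 members without a summit. Over all 42 members the share was 52.4%, beside 30.9% of the 291 bound protein-coding genes and 17.2% of all protein-coding genes. A gene on the same strand ended within 1000 bp upstream in 12 members, or 28.6%, beside 29.6% of the 291 bound protein-coding genes and 27.8% of all protein-coding genes. Among bound members this applied to eif-3.C, with 400 bp to sys-1, and eif-2Bgamma, with 251 bp to C15F1.5.

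Nearby genes for tRNA, snoRNA or snRNA were counted at the member peaks. Of the 7 summits, 1 had a tRNA, snoRNA or snRNA gene within 200 bp (14.3%), beside 71 of the 291 bound protein-coding genes (24.4%). This was the eif-2Bgamma summit, 65 bp downstream of the 5' end of sup-39, a U1-type snRNA gene that pairs with 5' splice sites, and 37 bp from mir-1831, which is annotated as an snRNA. The ncRNA gene C15F1.14 covered the same position, and the summit lies in an intron of C15F1.5. None of the 4 elongation factor summits had such a gene within 200 bp. The eef-1A.1 summit lay in the mir-5549 gene and the eef-1A.2 summit was 135 bp from the ncRNA gene R03G5.8, so 3 of the 7 were near a non-coding gene of any kind (42.9%, beside 39.5%). None of the 35 other members had a tRNA, snoRNA or snRNA gene in its promoter window. The share of all protein-coding genes with such a gene there is not given, so this count stands as description only.

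Short base words found at many peaks in earlier work on these data were searched for at the member summits. The word CGAACC, the word GAACCC and the word ACCACT, searched on both strands within 50 bp of each summit, were found at 1 of the 7 summits (14.3%). That was eef-1G, with GAACCC before the 5' end and ACCACT elsewhere in the full window. The first of these words overlaps the second by 5 bases. At least 1 of the 3 words was present at 30.5% of the 620 nuclear thresholded summits, at 10.3% of the 175 thresholded promoter summits with no tRNA, snoRNA or snRNA gene near, and at 5.78% of equal windows at the 5' ends of all protein-coding genes. Content of G and C in the same windows ran from 44.6% in eef-1A.1 to 57.4% in iff-2 and eif-2Bgamma, with a median of 49.5%. The median was also 49.5% over the 175 thresholded promoter summits with no tRNA, snoRNA or snRNA gene near. It was 48.5% over nuclear thresholded summits, 40.6% over the other candidates and 35.6% at 5' ends.

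Candidate summits at the other initiation factor genes were weak. The strongest candidate-only signals were 55.5 in eif-3.F (at +76 bp), 53.7 in eif-3.J (at -386 bp) and 50.4 in eif-3.G (at -371 bp), all for subunits of eIF3. Below these came ife-1 with 45.9, eif-2alpha with 43.2, eif-2gamma with 42.3, eif-3.E with 41.7 and ife-5 with 40.6. The median over the 15 candidate-only initiation factor genes was 40.6, beside 40.7 over the 5776 candidate-only protein-coding genes. The highest of the 15 ranked 4591 in the combined list, so a wide gap separated them from the 2 bound initiation factor genes, at ranks 189 and 321.

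By complex, eIF3 had 1 bound and 6 candidate-only genes among 11, and eIF2, which carries the initiator tRNA, had 2 candidate-only genes among 3. Among the 5 eIF2B genes, eif-2Bgamma was bound and the 4 others had no summit in the combined list. The cap-binding eIF4E genes had 0 bound and 3 candidate-only members among 5: ife-1, ife-5 and ife-2 (signal 34.6). Of the remaining ones, ife-3 had a summit in replicate 2 alone (rank 915, at -990 bp) and ife-4 in replicate 1 alone (rank 26320). The eIF4G gene ifg-1, for the scaffold between cap and ribosome, had none in any of these lists. The eIF4A helicase gene inf-1 had a candidate with a signal of 36.0. The gene eif-4A3, for the helicase of the exon junction complex, shares the name but not the role in initiation, and had no summit. By its symbol it is counted among the 32 initiation factor genes.

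The other eIF5A gene and the release factor genes were not bound. The gene iff-1, known for its role in germline proliferation, had a candidate of 40.5 at -972 bp, inside an intron of the divergent gene cdk-1, and 0 candidates in replicate 1. It stood apart from its paralogue iff-2, with 187.8 at -55 bp. The gene erfa-3, for the GTPase that assists release, had the highest candidate-only signal outside the elongation factors, 62.1 at -275 bp (rank 2976). The gene erfa-1, for the protein that reads stop codons, had no summit.

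Taken per replicate, 21 members (50%) had a candidate summit in the promoter in replicate 1, beside 30.7% of all protein-coding genes. In replicate 2 the count was 26 (61.9%), beside 26.9%. Both replicates held one in 17 members, or 40.5%, beside 14.9% of all protein-coding genes. For elongation factors that was 5 of 6 and for initiation factors 10 of 32. These lists hold background regions as well as peaks.

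Beyond the window, 2 of the 35 unbound members had a thresholded summit within 2000 bp. At eif-3.G a peak with a signal of 229 had its summit 1068 bp upstream, in an intron of lips-10, and its region reached to 881 bp upstream and so into the promoter window. At eif-6, for a factor that keeps the ribosomal subunits apart, a peak with a signal of 118.7 lay 1958 bp upstream. Its summit was outside protein-coding genes and near another gene, tba-2. For the 35 genes the median distance to the nearest thresholded summit was 39822 bp, and for 31 of them it was over 10000 bp. The same distances over all protein-coding genes are not given, so those of the members stand as description only.

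Other genes of translation outside these names were taken from a list of 32, of which 27 matched an annotated symbol. Of these 3 were bound (11.1%), beside 1.46% of all protein-coding genes. Another 9 of the 27 had only a candidate, beside 28.9% of all protein-coding genes. The bound ones were ifet-1, for an eIF4E-binding repressor of translation, drr-2, for a relative of eIF4H, and larp-1, for an RNA-binding protein. Their signals of 264, 224 and 183 exceeded those of all bound members except iff-2, which lay above larp-1. Each shared its summit with another gene: ifet-1 (at -490 bp) with rps-1 (at -278 bp), drr-2 (at -164 bp) with set-16 (at -182 bp), and larp-1 (at -705 bp) with wip-1 (at -284 bp). The kinase genes gcn-2 and pek-1, which act on eIF2, and the mitochondrial elongation factor genes tufm-1, tsfm-1 and gfm-1 had no summit in the combined list.

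**Figure D4:**
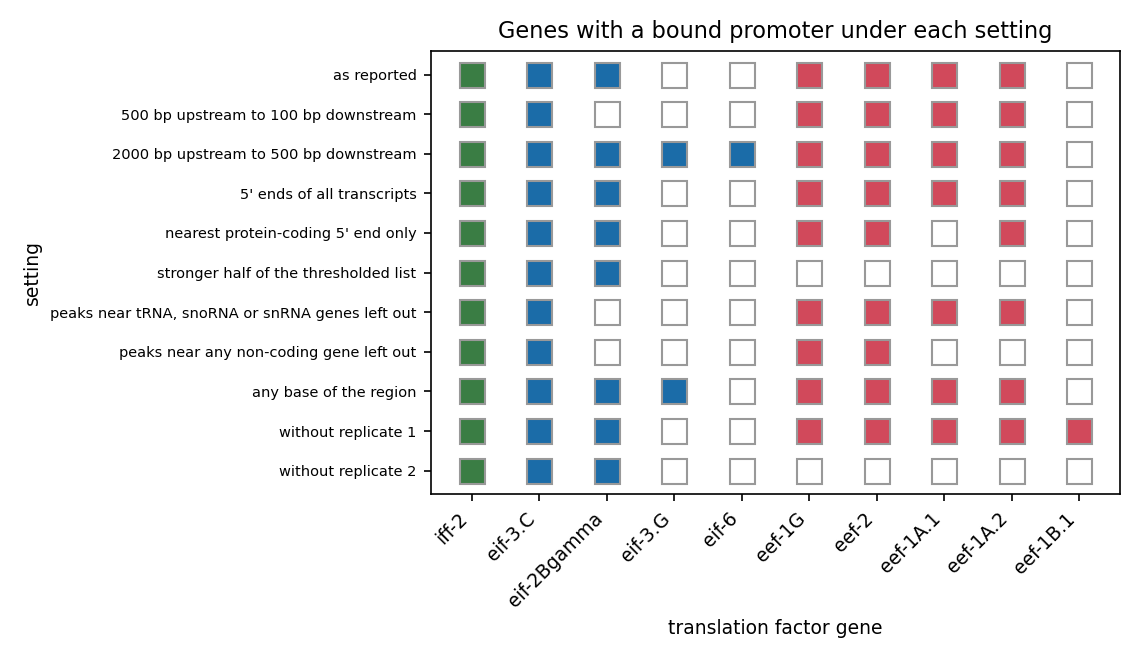
Translation factor genes with a bound promoter (filled squares) under the reported setting and 10 others (y axis), for every gene bound in at least 1 of them (x axis). The squares of iff-2 and eif-3.C are filled in all 11 rows, and those of the elongation factor genes are empty when the list was kept to signals of at least 131.3 and without replicate 2.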

How the data were processed

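Per the deposited notes, the authors made 3 lists of candidate regions (peaks with background) against a control, for each replicate alone and for both combined, in assembly ce11. They derived the thresholded list from these with the irreproducible discovery rate. A single alignment is given for the technical libraries of replicate 1, which were counted as 1 replicate. Fragments were 200 to 800 bp long, per the labels. The sources used here do not give the caller, aligner, threshold or versions. The deposited signal score has no unit and was compared only within a list. The deposited −log10 q was copied. Column 10 of the deposited lists gave the summit.

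Genes came from Ensembl release 115 and sequence from RefSeq, both WBcel235; 0 nuclear regions ran past a chromosome end. Mitochondrial regions were left out (15 of 635 thresholded). Summits were matched between lists within 200 bp, taking the strongest. Scripts used Python 3.11.15 and pandas 2.3.3 and were tested on simulated summits.

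No test was run: there is 1 group, and genes are not replicates. The members, lists and words were chosen with earlier results of these data known, and all bound members, the 10 strongest candidate-only ones and all iff-, ife-, eef- and erfa- genes were named. Genes outside that rule were named after their values were seen. Depth, and so the precision of each value, is unknown.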

Additional observations from a re-analysis of the deposited data

How the results depend on the processing

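The count of 7 bound translation factor genes was 3 when the list was kept to signals of at least 131.3 and 4 without peaks near any non-coding gene, and ran from 3 to 8 when a replicate was left out. The elongation factor count of 4 was 0 and 2 in these settings and ran from 0 without replicate 2 to 5 without replicate 1. The initiation factor count of 2 was 1 in the narrow window (500 bp upstream to 100 bp downstream), 1 without peaks near tRNA, snoRNA or snRNA genes, 1 without peaks near any non-coding gene and 4 in the wide window (2000 bp upstream to 500 bp downstream). The count of 1 summit near a tRNA, snoRNA or snRNA gene was 3 with any non-coding gene, the miRNA gene mir-5549 included. Other settings kept each count within 1.5 times its value. The median offset of -243 bp was -149 bp in the narrow window, -149 bp without peaks near tRNA, snoRNA or snRNA genes and -358 bp in the wide window. Depth was unknown for all lists.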
